A study of Mus musculus with 4 samples.

Results

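Cytotoxic lymphocytes carry their killing proteins in granules, and the 8 genes described here encode the proteases, the pore former and other proteins of that machinery. They were taken by symbol from the 27998 genes of the deposited counts: the granzymes Gzma, Gzmb, Gzmk and Gzmm, the perforin gene Prf1, the granule genes Nkg7 and Ctsw, and the death ligand gene Fasl. All 8 were listed. The counts were unique molecular identifiers (UMIs, each standing for 1 captured RNA molecule) from droplet-based 3′ single-cell RNA sequencing of T cells enriched from blood for CD3+ cells with a pan T cell isolation kit. C57BL/6 mice, 6 to 8 weeks old when enrolled and matched for age and sex, carried subcutaneous MC-38 tumors, a transplanted colon cancer line of this strain, and blood was drawn on day 18. The untreated group received neither agent. The anti-PD-L1 group (clone MIH-5) was given 150 µg intraperitoneally on days 10, 13 and 17, and the anti-OX40/CpG group received 150 µg of the agonist OX86 with 25 µg CpG, injected near the tumor on day 7. PDOX is the combination of both regimens. Each group was 1 library, and the series' design speaks of 4 blood samples from 4 mice, so that mouse, library and treatment cannot be told apart, and no test was made between treatments.

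Granzymes are serine proteases that enter a target cell through pores made by perforin and start its death from within. Granzyme B cleaves after aspartate and activates caspases, granzymes A and K are tryptases that cleave after basic residues, and granzyme M cleaves after methionine or leucine. Nkg7 encodes a granule membrane protein needed for granule release, and Ctsw encodes cathepsin W, a cysteine protease of CD8+ T and NK cells. Fasl encodes Fas ligand, which kills through a receptor at the target's surface and not through granules. Resting T cells hold few granzyme transcripts, activated and effector CD8+ T cells gain them, and NK cells carry some of them before any activation.

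Cells with at least 200 detected genes were kept, 784 in the untreated library, 1446 in that of anti-PD-L1, 1559 in that of anti-OX40/CpG and 1510 in PDOX, or 5299 of 5434. Values for the 4 libraries are given in this order throughout. The deposited libraries held between 2392650 and 4969885 UMIs. Their median depths were 1454.5, 1647, 1614 and 1511.5 UMIs per kept cell after mitochondrial, ribosomal protein and hemoglobin genes had been left out, and levels are UMIs per 10000 of the remaining UMIs. Hemoglobin genes took 7.99% of UMIs in the untreated library and between 0.344% and 1.70% in the others. Cells were gated by their own UMIs. The CD8 gate took cells with Cd8a or Cd8b1, a Cd3 gene and no Cd4, and held 307, 630, 665 and 446 cells. The CD4 gate was built the same way on Cd4 and held 91, 184, 265 and 297. The NK gate took cells without a Cd3 gene and with at least 2 NK receptor genes, and held 13, 5, 30 and 14. The B gate held 31, 57, 7 and 37 cells without Cd3 and with at least 2 B cell genes. Between 38.0% and 47.4% of the cells of a library fell in no gate, of which 1545 in all had a Cd3 gene but no coreceptor UMI. Barcodes shared between libraries numbered 16. The median similarity of their cells' profiles (cosine 0.449) was near that of 200 other pairs (0.433). Intervals are exact 95% intervals and cover counting error only. Where no cell had a UMI, the limit given is a floor of 3 cells and bounds the share of cells with a UMI, not of cells that express the gene.

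The genes lie on 6 mouse chromosomes (RefSeq, GRCm38.p6). Gzma (ENSMUSG00000023132, chr13:113093824-113100981, minus strand) and Gzmk (ENSMUSG00000042385, chr13:113171630-113180965, minus strand) are neighbors, 70648 bases apart with 1 annotated gene between them. Gzmb (ENSMUSG00000015437) lies at chr14:56258836-56262334 on the minus strand. Gzmm (ENSMUSG00000054206) at chr10:79689020-79695261 and Prf1 (ENSMUSG00000037202) at chr10:61297751-61304684 share chromosome 10, both on the plus strand. Nkg7 (ENSMUSG00000004612) lies at chr7:43437138-43438246 on the plus strand, Ctsw (ENSMUSG00000024910) at chr19:5465043-5468628 and Fasl (ENSMUSG00000000817) at chr1:161780691-161788495 on the minus strand.

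The 250 bases before the annotated start are shown for the 3 granzymes that differed most between the libraries and for Nkg7, which most CD8 cells held, since these genes were higher together in the PDOX library. Capitals mark matches, on either strand, to a RUNX motif (TGTGGTT), a T-box motif (GGTGTGA) or an AP-1 motif (TGANTCA), which were searched because factors of these families act in effector T cells. No match overlapped another.
Gzma, minus strand of chr13:113100982-113101231: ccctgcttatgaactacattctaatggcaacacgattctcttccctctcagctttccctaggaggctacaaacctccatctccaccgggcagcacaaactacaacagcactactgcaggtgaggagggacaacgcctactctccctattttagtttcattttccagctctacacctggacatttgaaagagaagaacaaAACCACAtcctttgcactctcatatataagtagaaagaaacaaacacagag
Gzmb, minus strand of chr14:56262335-56262584: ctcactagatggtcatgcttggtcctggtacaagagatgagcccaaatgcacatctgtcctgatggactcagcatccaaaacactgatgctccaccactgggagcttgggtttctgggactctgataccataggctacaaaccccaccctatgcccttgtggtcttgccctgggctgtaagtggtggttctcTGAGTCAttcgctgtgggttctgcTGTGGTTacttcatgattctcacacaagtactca
Gzmk, minus strand of chr13:113180966-113181215: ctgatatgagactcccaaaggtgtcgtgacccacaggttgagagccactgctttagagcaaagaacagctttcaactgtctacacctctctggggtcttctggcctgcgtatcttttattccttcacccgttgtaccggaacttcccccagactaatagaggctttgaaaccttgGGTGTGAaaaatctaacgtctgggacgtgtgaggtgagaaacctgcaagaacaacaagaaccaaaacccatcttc
Nkg7, plus strand of chr7:43436888-43437137: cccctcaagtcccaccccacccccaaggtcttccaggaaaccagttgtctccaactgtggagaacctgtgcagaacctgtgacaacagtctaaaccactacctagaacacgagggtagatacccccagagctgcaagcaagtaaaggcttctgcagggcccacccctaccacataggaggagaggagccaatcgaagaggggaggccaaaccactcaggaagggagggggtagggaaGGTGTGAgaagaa
The RUNX motif stood 51 bases before the start of Gzma, on the opposite strand, and 34 bases before that of Gzmb. The Gzmb window also held the AP-1 motif, at 58 bases. The T-box motif stood 75 bases before the start of Gzmk and 13 before that of Nkg7, and also in the second of the promoters listed for Gzmm, at 189 bases. The windows of Prf1 and Fasl held none of these letters, and no promoter of Ctsw was listed. Among all 32851 mouse promoter windows of this length, 4.40% held the RUNX, 3.33% the T-box and 6.75% the AP-1 letters, so a match is a description of the sequence and not a binding site.

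In CD8-gated cells, Gzma, Gzmb and Gzmk had the same order of libraries, lowest in the untreated, next in anti-PD-L1, next in anti-OX40/CpG and highest in PDOX. The share of CD8 cells with at least 1 UMI of Gzma, Gzmb or Gzmk was 5.86% (18 cells), 12.2% (77), 19.1% (127) and 36.8% (164). The intervals of neighbors in this order did not overlap, with the untreated library at 3.51% to 9.11%, anti-PD-L1 at 9.77% to 15.0%, anti-OX40/CpG at 16.2% to 22.3% and PDOX at 32.3% to 41.4%. B-gated cells, which should lack these genes, gave 2 cells of 132 (1.52%), both with Gzma, at a median of 1224 UMIs against 1701 in the CD8 gate. With every cell thinned to 750 UMIs, which kept 278, 593, 615 and 402 CD8 cells, the shares were 2.16%, 8.77%, 14.6% and 31.1%.

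**Figure D1:**
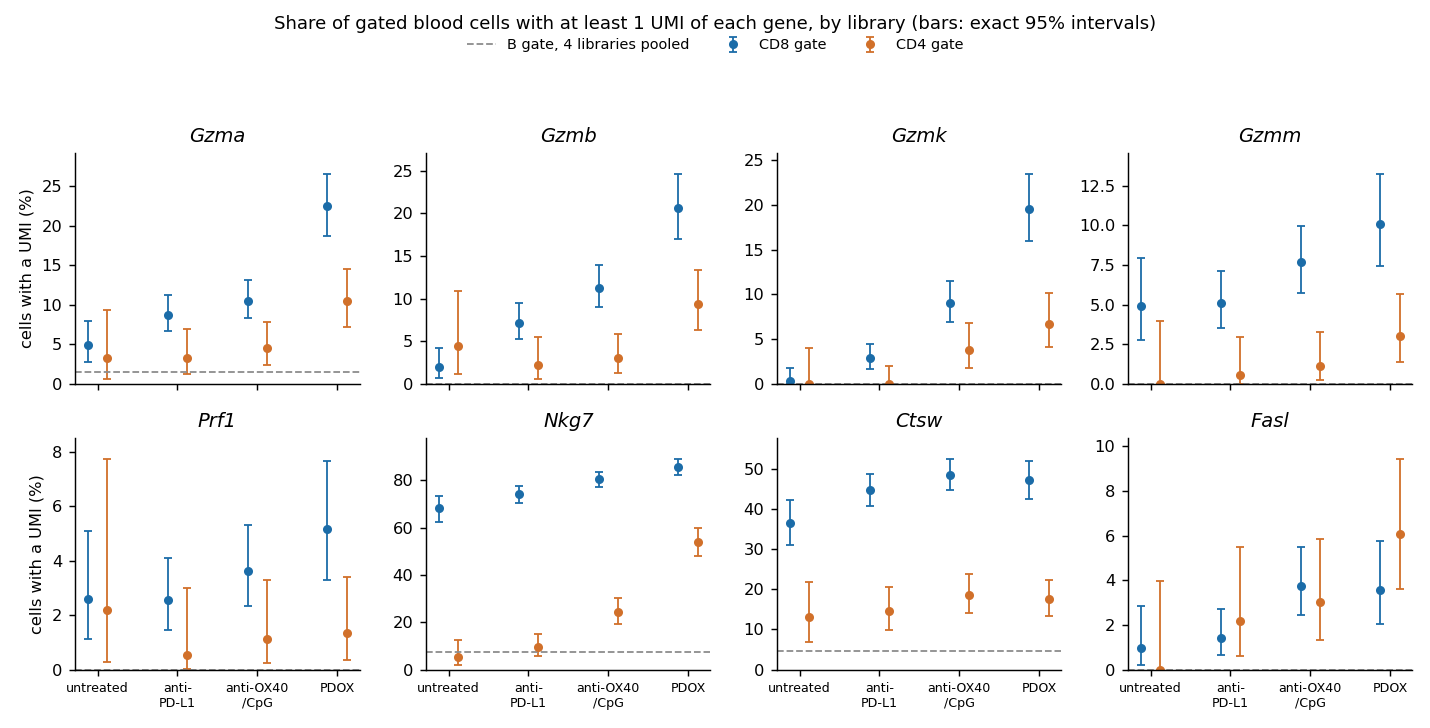
Share of cells with at least 1 UMI of each gene (percent, y axis, scaled per panel) in the CD8 and CD4 gates of the 4 libraries (x axis), with exact 95% intervals; the dashed line is the share in the 132 B-gated cells of all libraries. In the CD8 gate, Gzma reaches 22.4%, Gzmb 20.6% and Gzmk 19.5% of PDOX cells, while Ctsw stays between 36.5% and 48.4%.

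Gzma (granzyme A) had 38, 703, 971 and 1490 UMIs in CD8 cells, which were levels of 0.778 (0.550 to 1.07), 5.56 (5.16 to 5.99), 8.17 (7.67 to 8.71) and 18.4 (17.5 to 19.4) per 10000. The PDOX library stood above each of the others, with a ratio of 23.7 (17.2 to 33.6) to untreated, 3.31 (3.03 to 3.63) to anti-PD-L1 and 2.25 to anti-OX40/CpG cells. The share of cells with a UMI spread less than the level: 4.89%, 8.73%, 10.5% and 22.4%. The amount per cell differed as well, and positive cells held a median of 1, 1, 2.5 and 7 UMIs. In the untreated library 1 cell carried 23 of the 38 UMIs and 13 of the 15 positive cells had 1 UMI each, so that this library's level rests on 1 cell. Without cells that carried an NK gene, this cell among them, the untreated level was 0.322.

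Few cells carried most of the Gzma message. In the anti-PD-L1 library 6 of 630 CD8 cells held at least 50% of its UMIs, and in the anti-OX40/CpG library 7 of 665 did. In PDOX 14 of 446 did. The highest cells held 105, 119 and 106 UMIs in the 3 treated libraries, while 28 of 55, 34 of 70 and 25 of 100 positive cells had 1 UMI, the band at the foot of the plot of Gzma per cell. NK-gated cells had medians of 38, 41, 26 and 35 UMIs per cell, with 1 cell of 62 at 1 UMI.

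**Figure D2:**
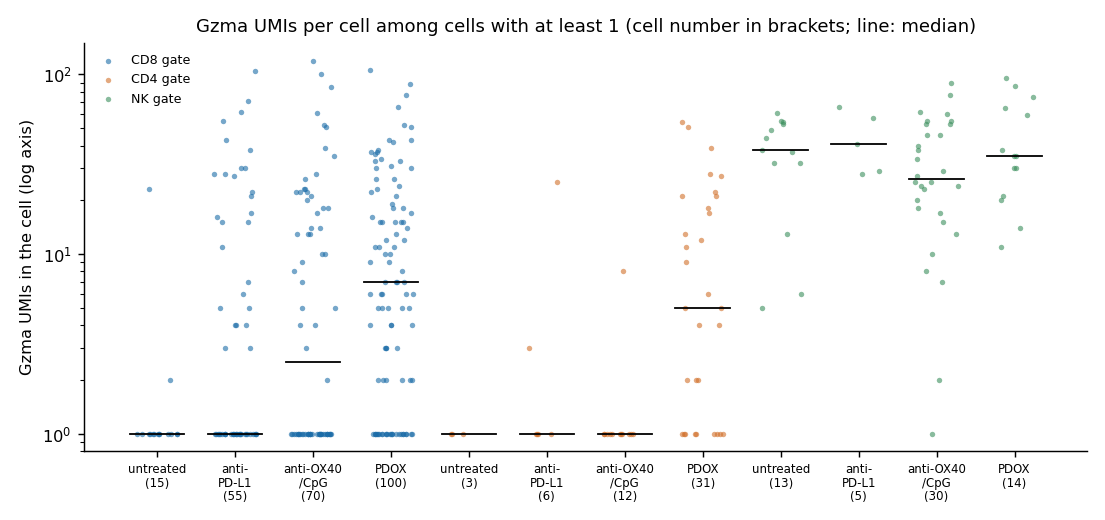
Gzma UMIs per cell (y axis, log scale) in the cells of the CD8, CD4 and NK gates that had at least 1, by library (x axis, number of cells in brackets), with each point 1 cell and each line a median. The median of CD8 cells is 1 UMI in the untreated and anti-PD-L1 libraries and 7 in the PDOX library, and NK cells have medians between 26 and 41.

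Gzmb (granzyme B) had 18, 172, 259 and 372 UMIs in CD8 cells, or 0.368 (0.218 to 0.582), 1.36 (1.17 to 1.58), 2.18 (1.92 to 2.46) and 4.60 (4.14 to 5.09) per 10000. The order was that of Gzma, and the PDOX level was 12.5 times (7.79 to 21.3) the untreated one, 3.38 times that of anti-PD-L1 and 2.11 times that of anti-OX40/CpG. Positive cells made up 1.95%, 7.14%, 11.3% and 20.6%, and unlike Gzma their median content stayed between 1.5 and 3 UMIs. No B cell of 132 had a Gzmb UMI, which by the floor of 3 cells allows a share with a UMI of up to 2.27%.

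Gzmk (granzyme K) had the widest range among the granzymes, from 1 UMI in the untreated CD8 cells to 34, 156 and 187 in the treated ones. The levels were 0.0205 (0.000518 to 0.114), 0.269 (0.186 to 0.376), 1.31 (1.12 to 1.54) and 2.31 (1.99 to 2.67) per 10000. The anti-OX40/CpG library was 4.88 times (3.35 to 7.30) the anti-PD-L1 library, a wider step than the 1.47 times (1.33 to 1.62) of Gzma and the 1.60 times (1.32 to 1.96) of Gzmb between the same libraries. PDOX was 8.59 times (5.94 to 12.8) anti-PD-L1 and 1.76 times (1.42 to 2.19) anti-OX40/CpG. Its ratio to untreated cells, 113, rests on the 1 UMI there and has an interval of 20.02 to 4484. Positive cells were 0.326%, 2.86%, 9.02% and 19.5% of the gate.

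Gzmm (granzyme M) moved less, with 22, 86, 92 and 93 UMIs or 0.450 (0.282 to 0.682), 0.680 (0.544 to 0.840), 0.775 (0.624 to 0.95) and 1.15 (0.928 to 1.41) per 10000. Each library's interval overlapped that of its neighbor in this order, and PDOX was 2.55 times (1.59 to 4.27) the untreated level. Prf1 (perforin) was sparse, with 9, 16, 26 and 23 UMIs in CD8 cells and levels of 0.184, 0.127, 0.219 and 0.284 per 10000. Its PDOX to untreated ratio of 1.54 had an interval of 0.688 to 3.79, so no difference between these libraries was detectable at this depth. Its ratio of PDOX to anti-PD-L1 was 2.25 (1.14 to 4.55). A 3′ UMI count gives no information on perforin protein.

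Nkg7 was found in most CD8 cells of every library, 68.1%, 74.0%, 80.3% and 85.65%. Its levels were 14.4 (13.3 to 15.5), 19.8 (19.0 to 20.6), 28.3 (27.4 to 29.3) and 41.4 (40.0 to 42.8) per 10000. The order was again that of the granzymes, but the step from the lowest to the highest was 2.88 times (2.65 to 3.13). Ctsw was flatter, at 3.21 (2.73 to 3.76), 3.90 (3.56 to 4.26), 4.34 (3.98 to 4.73) and 4.25 (3.81 to 4.72) per 10000. The PDOX and anti-OX40/CpG levels of Ctsw did not differ beyond counting error, with a ratio of 0.979, and PDOX was 1.32 times (1.09 to 1.61) untreated. Fasl had 4, 10, 31 and 17 UMIs, and the anti-OX40/CpG level of 0.261 was 3.30 times (1.58 to 7.54) the anti-PD-L1 level of 0.0791. For Fasl, PDOX to untreated was 2.57 with an interval of 0.837 to 10.5.

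Set against all genes, 3 of the 8 (Gzma, Gzmb and Gzmk) were at least 2-fold higher in anti-PD-L1 than in untreated CD8 cells, where 4.57% of the 7565 genes with at least 20 UMIs in these 2 libraries were. In the anti-OX40/CpG library 4 of the 8 were, these granzymes and Fasl, beside 3.81% of genes. In PDOX 6 of the 8 were, with Gzmm and Nkg7 added, beside 4.97% of genes. Fasl fell under 20 UMIs in the comparison of anti-PD-L1 with untreated cells. The 3 comparisons share the untreated library and its 307 CD8 cells.

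Transcripts of NK receptor genes moved in the same direction across these libraries. CD8-gated cells with a UMI of any of the NK gate's genes were 8, 33, 49 and 44, or 2.61%, 5.24%, 7.37% and 9.87% of the gate. They were 66 of the 240 cells with Gzma (27.5%), 44 of the 90 cells with at least 10 Gzma UMIs, and 28 of the 166 cells with Gzmk (16.9%), beside 6.54% of the whole gate. Without these cells, a choice made after seeing the data, Gzma was at 0.322, 2.80, 4.24 and 10.3 per 10000, Gzmb at 0.150, 1.08, 1.71 and 3.83 and Gzmk at 0.0215, 0.248, 1.34 and 2.14. The order of the libraries held for all 3 granzymes, and the share of cells with any of them was 5.69%, 10.1%, 16.7% and 32.3%. Among the genes of the NK gate, Ncr1 was found in 8 and Klrb1c in 22 of the 2048 CD8-gated cells. Any of the gate's genes was found in 134 of them, and 2 or more in 27. Tyrobp, a further NK marker, was found in 62 of the 2048 and in 18 of the 240 cells with Gzma.

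CD4-gated cells of the 4 libraries held lower levels of Gzma, Gzmk and Gzmm than the CD8-gated cells (for Gzmk in the untreated library, 0 against 1 UMI), while Gzmb was lower in the 3 treated libraries only and not in the untreated one. Nkg7 had 15, 52, 387 and 1326 UMIs, levels of 0.981 (0.549 to 1.62), 1.76 (1.32 to 2.31), 7.95 (7.18 to 8.78) and 24.9 (23.5 to 26.2) per 10000. It was found in 5.495%, 9.78%, 24.5% and 53.9% of CD4 cells, beside 7.58% of B cells (10 of 132, interval 3.69% to 13.5%), so that the untreated and anti-PD-L1 shares were not above this background. The PDOX level was 25.35 times (15.3 to 45.4) untreated and 3.13 times anti-OX40/CpG.

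Gzma in CD4 cells stood apart in the PDOX library, at 3, 32, 19 and 382 UMIs or 0.196 (0.0404 to 0.573), 1.08 (0.741 to 1.53), 0.390 (0.235 to 0.610) and 7.16 (6.46 to 7.92) per 10000. Of the 32 UMIs of the anti-PD-L1 library, 1 cell held 25. The shares of positive cells, 3.30%, 3.26%, 4.53% and 10.4%, overlapped the B cell interval of 0.184% to 5.37% in all but PDOX. The PDOX level was 36.5 times (12.4 to 178) the untreated and 18.35 times the anti-OX40/CpG level. Without CD4 cells that carried an NK gene, again chosen after seeing the data, the Gzma levels were 0.204, 0.240, 0.394 and 6.74.

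Gzmk in CD4 cells had 0, 0, 33 and 37 UMIs, in 10 anti-OX40/CpG and 20 PDOX cells. Finding 0 of 91 untreated and 0 of 184 anti-PD-L1 cells with a UMI allows, by the floor of 3 cells, shares with a UMI of up to 3.30% and 1.63%. Against a floor of 3 UMIs, PDOX was at least 3.54-fold higher than untreated and at least 6.83-fold higher than anti-PD-L1. The anti-OX40/CpG and PDOX levels, 0.678 (0.467 to 0.952) and 0.694 (0.488 to 0.956), lay within each other's interval. Gzmb had 7, 5, 13 and 38 UMIs (0.458, 0.169, 0.267 and 0.712 per 10000), and the untreated and PDOX intervals overlapped. The PDOX level of Gzmb was 4.21 times (1.65 to 13.7) that of anti-PD-L1 and 2.67 times (1.39 to 5.46) that of anti-OX40/CpG. Gzmm had 0, 1, 5 and 9 UMIs, Prf1 2, 1, 3 and 4, and Fasl 0, 6, 8 and 19. Ctsw was level, at 0.915, 1.08, 1.5 and 1.48 per 10000.

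In CD4 cells at least 2-fold higher than untreated were 1 of the 8 genes in anti-PD-L1 (Gzma, of 3 with at least 20 UMIs) beside 5.01% of 3769 genes, 2 in anti-OX40/CpG (Gzmk and Nkg7) beside 8.24% of 4723, and 3 in PDOX (with Gzma) beside 10.4% of 4904. Gzmm, Prf1 and Fasl fell under 20 UMIs in all 3 comparisons, and Gzmb and Gzmk in that of anti-PD-L1. The untreated side is the same 91 cells in each. The call of Gzma in anti-PD-L1 cells was lost without cells carrying an NK gene, where 0 of the 8 genes were 2-fold higher.

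Foxp3, the defining factor of regulatory T cells, was found in 30 CD4-gated cells. Gzmb was found in 7 of them (23.3%, 9.93% to 42.3%, 15 UMIs), beside 37 of the 807 CD4 cells without Foxp3 (4.585%). Gzma was found in 1 and Gzmk in 0 of the 30. The median depth was 2071 UMIs with and 1638 without Foxp3. In the untreated library, 5 of the 7 Gzmb UMIs of the CD4 gate came from 2 of its 3 Foxp3+ cells. Nkg7 was found in 14 of the 30 and in 234 of the 807. Nkg7 also spread beyond the granzymes: among the 734 CD4 cells with none of Gzma, Gzmb or Gzmk, 24.4% had Nkg7, against 67.0% of the 103 cells with any of them.

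CD8 and CD4 cells of the same library were then compared over all genes, with UMIs summed per library and gate. The edgeR quasi-likelihood test with the library as a block asks whether a difference between the gates held over the 4 libraries, so the 4 treatments take the place of replicates. Of 6117 genes, 260 passed an adjusted p of 0.05, 153 higher and 107 lower in CD8 cells, so that 2.5% of the genes were called higher. The count was 90 without the anti-OX40/CpG and 144 without the PDOX library. Of the 8 members, 6 were called higher in CD8 cells, Fasl was not called and Prf1 was not tested. Gzmm met the filter on low counts only through its CD8 levels, and Gzmb and Gzmk would not have met it on CD4 levels alone. This count is therefore a description. The median log2 fold change of all genes was -0.01.

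Gzmm differed most between the gates, with 293 UMIs in CD8 and 15 in CD4 cells and a log2 fold change of 3.15 ± 0.295 (SE, 4 libraries, edgeR adjusted p 8.3e-05). Since Gzmm met the filter on low counts only through its CD8 levels, its adjusted p is a description. The same holds for Gzmb and Gzmk, whose CD4 levels alone would not have met it. Gzmb followed at 2.64 ± 0.304 (adjusted p 0.00043), higher in 3 of 4 libraries, since the untreated CD4 level of 0.458 lay above the CD8 level of 0.368. Gzma was at 2.46 ± 0.355 (edgeR adjusted p 0.0018), Nkg7 at 2.26 ± 0.362 (0.0037) and Ctsw at 1.70 ± 0.105 (1.1e-05), each higher in 4 of 4 libraries. Gzmk was at 1.56 ± 0.262 (edgeR adjusted p 0.0049). For Gzmk the untreated library had 1 CD8 and 0 CD4 UMIs and gave no direction. Gzmk did not pass without the PDOX library (edgeR adjusted p 0.13). Without the library as a block, the edgeR adjusted p was 0.49 for Gzma, 0.14 for Gzmb, 0.67 for Gzmk and 0.45 for Nkg7, and DESeq2 gave Gzmb an adjusted p of 0.06. Fasl gave -0.18 ± 0.403 (adjusted p 0.89) on 62 and 33 UMIs, and Prf1, with 74 and 10 UMIs, was under the filter on low counts.

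Other genes of the killing pathway were compared between the gates from a list. Of 21 listed genes for granule proteins, inhibitors, release factors and effector ligands, 17 were tested, 3 were higher in CD8 cells, where 2.5% of all genes were, and 0 lower. These were Cst7 (cystatin F, an inhibitor of granule cathepsins; log2 2.09), Crtam (2.51) and Slamf7 (1.49), both receptors of activated killer cells. The median of the 17 was 0.01. The granzyme genes Gzmc, Gzmd, Gzme, Gzmf, Gzmg and Gzmn were all too low to be tested in this and the following comparisons.

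**Figure D3:**
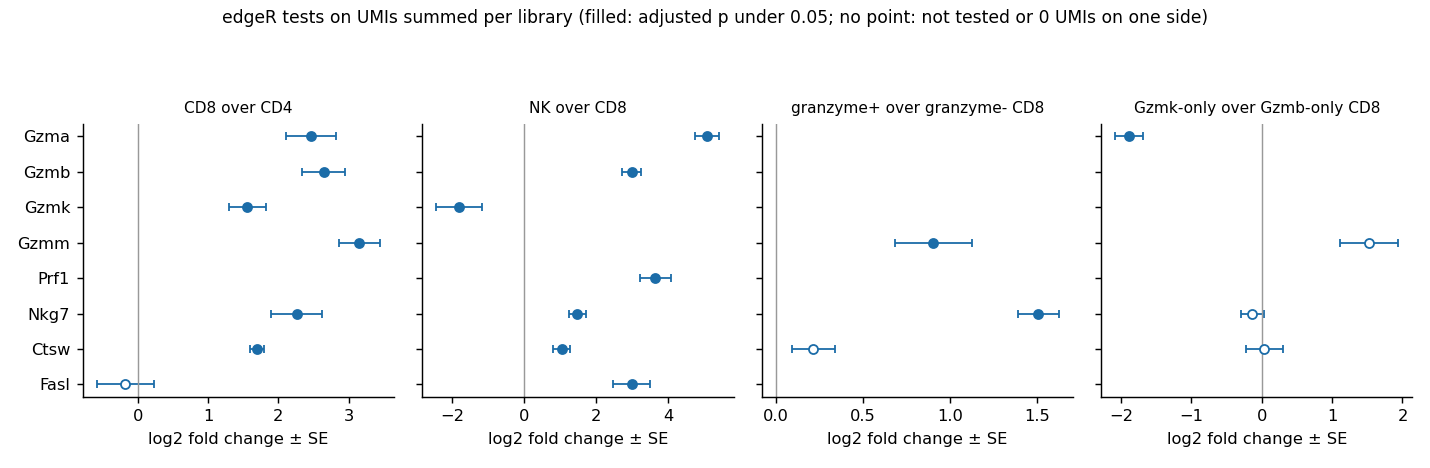
Log2 fold changes of the 8 genes with their standard errors (x axis) in the 4 edgeR comparisons of UMIs summed per library and cell group, with filled points at an adjusted p under 0.05. In the first panel 6 of 7 points are filled and lie between 1.56 and 3.15, and in the NK panel Gzma lies farthest to the right at 5.09. Genes not tested, or with 0 UMIs on one side (Gzmm in NK cells), have no point.

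NK-gated cells held part of these transcripts. They are cells that remained after a pan T cell isolation, which removes NK cells, so their number describes the enriched cells and not blood. The 62 NK-gated cells were 1.17% of all cells but held 28.3% of the 8174 Gzma UMIs, 22.2% of the 158 Prf1 UMIs, 12.5% of the 1516 Gzmb UMIs and 12.3% of the 154 Fasl UMIs. They held 0.672% of the 595 Gzmk UMIs and none of the 356 Gzmm UMIs, of which 82.3% lay in CD8 cells. CD8 cells, 38.65% of all cells, held 39.2% of Gzma and 63.5% of Gzmk. Cells outside the gates, 41.9% of all cells, held 27.2% of Gzma, 29.2% of Gzmb, 24.7% of Prf1, 26.0% of Fasl and 24.0% of Gzmk UMIs.

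**Figure D4:**
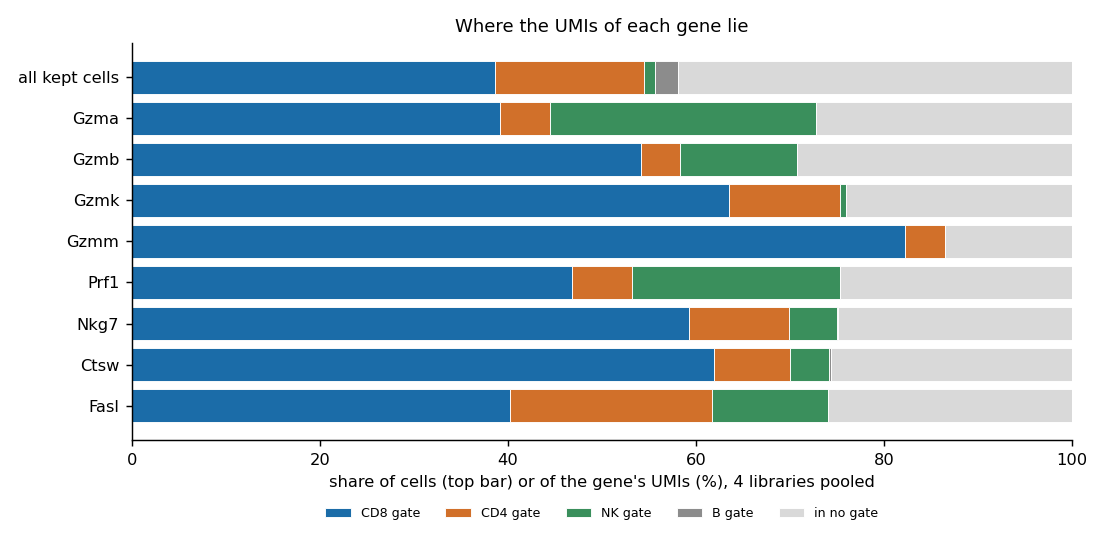
Share of all kept cells (top bar) and of each gene's UMIs (other bars) in the CD8, CD4, NK and B gates and outside the gates, in percent (x axis), with the 4 libraries pooled. NK cells are 1.17% of cells and hold 28.3% of Gzma and 0.672% of Gzmk UMIs, and 82.3% of Gzmm UMIs lie in CD8 cells.

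All 62 NK cells had Gzma, at 238, 210, 193 and 240 per 10000 in the 4 libraries (pooled 214, interval 206 to 223). The libraries did not follow the order seen in CD8 cells, and the lowest level was that of anti-OX40/CpG. Gzmb was found in 47 of the 62 (75.8%), at 24.9, 25.7, 13 and 17.6 per 10000. Prf1 was found in 24 (38.7%), Fasl in 15 (24.2%), Ctsw in 46 (74.2%) and Nkg7 in all 62. Gzmk had 4 UMIs in 3 cells. Gzmm had 0 UMIs, which by the floor of 3 cells allows up to 4.84% of cells with a UMI. At the CD8 level of 0.781 per 10000, 8.42 UMIs would have been found, and Gzmm was at least 2.81-fold lower than in CD8 cells against a floor of 3 UMIs.

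The edgeR test of NK against CD8 cells took the 3 libraries with at least 10 NK cells, which left out anti-PD-L1. Of 4419 genes, 177 (4.01%) were higher and 345 (7.81%) lower in NK cells, with a median log2 of -0.22. The genes called were 325, 209 and 347 without the untreated, anti-OX40/CpG and PDOX library. Prf1 and Fasl, sparse in CD8 cells, and Gzmm, at 0 in NK cells, met the filter on low counts only through the group where they were higher, so no count of members is given. With no filter they were called in the same direction (edgeR adjusted p 1.2e-11 for Prf1, 0.0001 for Fasl and 0.0029 for Gzmm). Gzma was higher by log2 5.09 ± 0.342 (SE, edgeR adjusted p 1.6e-29), Prf1 by 3.64 ± 0.434 (2e-12), Gzmb by 2.99 ± 0.261 (3.4e-20) and Fasl by 2.99 ± 0.513 (1.1e-06). Nkg7 (1.48, adjusted p 2.1e-07) and Ctsw (1.05, adjusted p 0.00045) were higher by less.

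The lower genes were Gzmk and Gzmm. Gzmk was at -1.80 ± 0.640 (edgeR adjusted p 0.048) on 4 NK UMIs, lower in the anti-OX40/CpG and PDOX libraries. The untreated library had 0 NK and 1 CD8 UMI of Gzmk and gave no direction. Gzmk passed in none of the fits that left out a library (edgeR adjusted p 0.059 without untreated, 0.23 without anti-OX40/CpG and 0.47 without PDOX). Gzmm had 0 against 207 UMIs (edgeR adjusted p 0.0041), with an adjusted p of 0.21 without anti-OX40/CpG and 0.08 without PDOX. In the pathway list 3 of 14 tested genes were higher and 0 lower: Serpinb9 (log2 3.02), which encodes an inhibitor of granzyme B that protects killer cells, Serpinb6b (1.73) and Cst7 (0.87). A further 36 cells carried a Cd3 gene, no coreceptor and at least 2 NK genes. They held 974 Gzma UMIs, a level of 154 per 10000, with Gzma in 27 and Gzmm in 2 of the 36.

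Within the CD8 gate, Gzma, Gzmb and Gzmk were found in overlapping but unequal sets of cells. Of the 386 CD8 cells with any of them, 110 had Gzma alone, 53 Gzmb alone and 43 Gzmk alone. Pairs were found in 57 cells for Gzma with Gzmb, 50 for Gzmb with Gzmk and 15 for Gzma with Gzmk, and 58 cells had all 3. Gzmb and Gzmk shared 108 cells, which were 65.1% (57.3% to 72.3%) of the 166 Gzmk+ and 49.5% of the 218 Gzmb+ cells. Gzma and Gzmb shared 115 cells, 47.9% of the 240 Gzma+ and 52.8% of the Gzmb+ cells. Gzma and Gzmk, the neighbors on chromosome 13, shared 73, 30.4% of the Gzma+ and 44.0% of the Gzmk+ cells.

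The share of Gzmk+ cells with Gzmb was 13 of 18 (72.2%) in anti-PD-L1, 44 of 60 (73.3%) in anti-OX40/CpG and 50 of 87 (57.5%) in PDOX CD8 cells, with overlapping intervals. The share of Gzma+ cells with Gzmk was 16.4%, 30.0% and 43.0% in the same libraries, where 2.86%, 9.02% and 19.5% of all CD8 cells had Gzmk. Cells with Gzma and Gzmk were 5.73, 3.325 and 2.20 times the number expected if these genes were found independently. The rise in the share thus went with the rise of Gzmk in the whole gate. Cells with all 3 granzymes numbered 0, 8, 17 and 33, and Gzmk alone was found in 0, 4, 12 and 27 cells, so both ends of this range were filled most in PDOX. Gzmb with Gzmk but without Gzma was at 27 of 665 anti-OX40/CpG cells (4.06%) and 17 of 446 PDOX cells (3.81%). The untreated library had 12 of its 18 granzyme+ cells with Gzma alone.

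Depth moved with these combinations. The median cell held 1652 UMIs with no granzyme, 1958 with any and 2926 with all 3. In cells thinned to 750 UMIs, the shared cells were 43.8% of the Gzmk+ cells for Gzmb (39 of 89) and 36.0% for Gzma (32 of 89). A cell counted as lacking a granzyme may hold transcripts that were not captured. In CD4 cells 9 of 30 Gzmk+ cells (30.0%, 14.7% to 49.4%) had Gzmb. In NK cells Gzma stood alone in 15, with Gzmb in 44 and with Gzmb and Gzmk in 3 of 62.

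**Figure D5:**
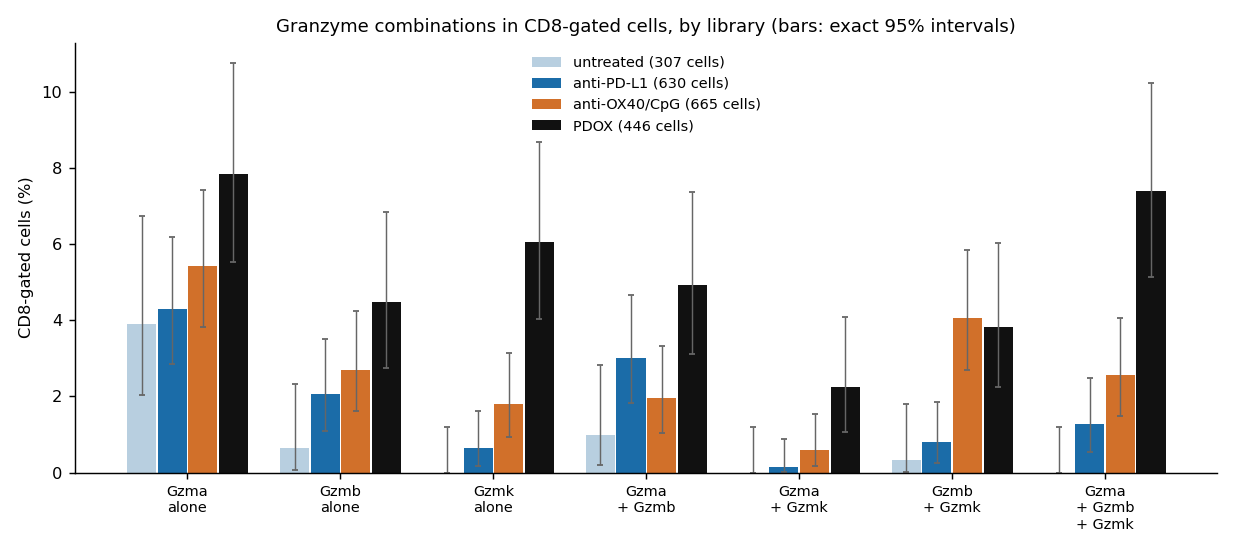
Share of CD8-gated cells (percent, y axis) with each combination of Gzma, Gzmb and Gzmk (x axis; other granzymes of the 3 at 0 UMIs) by library, with exact 95% intervals. All 3 together reach 33 of 446 cells in PDOX and 0 of 307 in the untreated library, while Gzmb with Gzmk is at 4.06% in anti-OX40/CpG and 3.81% in PDOX.

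The other members were spread unevenly over these cells. Gzmm overlapped least, since of its 143 positive CD8 cells 24.5% had Gzma, 19.6% Gzmb and 18.2% Gzmk. These shares were still 2.09, 1.84 and 2.24 times those of all CD8 cells (11.7%, 10.6% and 8.105%). Gzmm was found in 10 of 43 cells with Gzmk alone (23.3%) and in 3 of 53 with Gzmb alone (5.66%). Fasl was found in 12 of 1662 cells without the 3 granzymes (0.722%) and in 41 of 386 with any (10.6%). It reached 8 of 43 with Gzmk alone and 10 of 50 with Gzmb and Gzmk, and was found in 3 of 110 with Gzma alone. Prf1 was found in 2.53% of cells without and 7.51% with any granzyme.

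Nkg7 was found in 73.8% of CD8 cells without a granzyme, 87.3% of those with Gzma alone and all 108 with Gzmb and Gzmk together. Its level was 17 per 10000 without a granzyme, 27.7 with Gzma alone, 57.2 with Gzmk alone, 52.9 with Gzmb alone and 85.25 with Gzmb and Gzmk but no Gzma. Among these, the Nkg7 level of cells with Gzma alone lay nearest to that of the granzyme-negative cells. The Gzma level of cells with Gzma alone, 20.4 per 10000, was below the 79.7 of cells with Gzma and Gzmb and the 73.0 of cells with all 3.

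Granzyme+ CD8 cells (any of Gzma, Gzmb or Gzmk) were tested against granzyme-negative CD8 cells of the same library, with the 3 genes left out. Of 5275 genes, edgeR called 439 (8.32%) higher and 381 lower, and the count of 820 fell to 390 without the anti-OX40/CpG library. Nkg7 was higher by log2 1.51 ± 0.118 (SE, edgeR adjusted p 2e-10) and Gzmm by 0.91 ± 0.223 (adjusted p 0.0046), each in 4 of 4 libraries. Gzmm did not pass without the anti-PD-L1 library (edgeR adjusted p 0.16). Ctsw, at 0.22 ± 0.125 (adjusted p 0.27), was not called, and Prf1 and Fasl were under the filter on low counts.

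In the pathway list 8 of 16 tested genes were higher, where 8.32% of all genes were, 0 were lower and 8 were not called, with a median log2 of 0.64 beside -0.02 over all genes. Ifng (interferon gamma, the main cytokine of these cells) was higher by 3.84, Serpinb9 by 2.38, Slamf7 by 2.33, Serpinb6b by 2.03 and Cst7 by 1.30. Vamp8 (granule fusion, 0.75), Ctsc (the protease that activates granzymes, 0.69) and Srgn (serglycin, the granule scaffold, 0.48) were higher by less. All 7 listed naive genes were lower, where 381 of all 5275 genes were. Of 7 listed terminal effector genes, Tbx21, S1pr5 and Itgam were not tested. All 4 tested were higher, with Klrg1 at 4.10, Klre1 at 3.74, Cx3cr1 at 2.85 and Zeb2 at 2.80. Klre1 is also an NK gate gene. All 4 cycling genes were higher, with Mki67 at 3.98 and Stmn1 at 3.17. Of 8 memory and homing genes 5 were higher and Il7r was lower by 1.01. The largest increases were Birc5 (survivin, 4.78), the chemokine gene Ccl3 (4.77) and Ube2c (4.44), and the largest decrease was the gut homing receptor gene Ccr9 (-2.64). A gene can meet the filter on low counts through 1 group alone, and whether the genes named here did was not examined. The counts and calls of these lists are therefore a description.

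CD8 cells with Gzmk and without Gzmb were set against cells with Gzmb and without Gzmk, in the 3 treated libraries (5 against 32, 16 against 31 and 37 against 42 cells). Gzma was lower in the Gzmk cells, at 15.6, 10.99 and 12.3 per 10000 against 32.25, 38.2 and 60.7 in the Gzmb cells. These library levels did not overlap, but the cells did. Gzma was found in 15 of 58 Gzmk cells, with up to 38 UMIs, and in 57 of 110 Gzmb cells of the 4 libraries, with up to 106. Single cells carried much of the lower levels: in the Gzmk cells all 21 Gzma UMIs of anti-PD-L1 lay in 1 of 5 cells, and 20 of the 33 of anti-OX40/CpG in 1 of 16. The log2 fold change was -1.89 ± 0.195 (SE, 3 libraries, edgeR adjusted p 2.9e-05). Of 1218 genes tested, 7 passed (0.575%), 1 higher and 6 lower. The count was 11 where anti-PD-L1 and 15 where anti-OX40/CpG was left out. Gzmm was at 5.20, 2.66 and 1.40 against 2.16, 0.715 and 0.370, higher in 3 of 3 libraries by 1.53 ± 0.412 but not called (edgeR adjusted p 0.14), on 25 and 31 UMIs, with the 7 UMIs behind the level of 5.20 in 1 cell. Nkg7 (-0.13 ± 0.162) and Ctsw (0.03 ± 0.265) were not called either.

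Beside Gzma, the genes lower in the Gzmk cells included Lgals3 (galectin-3, -2.21), Stmn1 (a tubulin regulator of dividing cells, -2.05) and Vim (vimentin, -1.09). Stmn1 was found in 20 of 110 Gzmb cells of the 4 libraries. Single Gzmb cells held 13 of its 31 UMIs in anti-PD-L1, 14 of 17 in anti-OX40/CpG and 20 of 45 in PDOX. Ifitm1, an interferon-induced gene, had 0 against 263 UMIs, which came from 13 cells with up to 62 UMIs each. Dapl1 was higher by 1.99 (edgeR adjusted p 0.0079), the 1 gene called among 4 tested of the 7 listed naive genes. Over the 4 libraries it had 42 UMIs in 8 of 58 Gzmk cells and 37 UMIs in 14 of 110 Gzmb cells. Of its 12 UMIs in the anti-OX40/CpG Gzmk cells, 11 lay in 1 cell. Lgals3, Stmn1, Ifitm1 and Dapl1 would not have met the filter on low counts without the group where they were higher. Their calls are therefore a description. The 7 tested pathway genes had a median of 0.22, beside -0.01 over all genes. The cells of these groups are few, and those with Gzmk alone came mostly from PDOX.

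Across the 8 profiles of CD8 and CD4 cells in 4 libraries, the genes whose level followed a granzyme most closely were not other members. For Gzma they were Ptpn4 (Pearson r 0.963), Klre1 (0.95) and 1110012L19Rik (0.940), for Gzmb N4bp1 (0.967), Ctla2a (0.955) and Zfand1 (0.949), and for Gzmk Rpa2 (0.958), Txndc17 (0.935) and Lag3 (0.933), among 6049 genes. Gzma and Gzmb gave 0.841, Gzmb and Gzmk 0.762 and Gzma and Gzmk 0.749. The 8 profiles share 4 libraries in pairs, and these values describe likeness only.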

How the data were processed

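Droplet-based 3′ single-cell RNA sequencing of blood T cells was analysed in 4 libraries, 1 per treatment. The authors ran Cell Ranger 2.1.1 and deposited raw UMI counts of every gene and cell, neither normalized nor filtered by gene, on mm10. The submitters' processing notes also name Seurat version 2. The library labelled OX40 is read as anti-OX40/CpG, from the study's regimen. The 8 genes, the gates and the gene lists were chosen with earlier results of these data known.

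Cells with 200 or more genes were kept. From totals, 13 mitochondrial, 85 ribosomal protein and 10 hemoglobin genes were left out. Levels are UMIs per 10000 with exact Poisson intervals, shares have Clopper-Pearson intervals and ratios conditional binomial intervals, all at 95%. A ratio to 0 UMIs used a floor of 3. The CD8 and CD4 gates took no cell with a UMI of a subset of the B gate genes, Cd79a and Ms4a1 among them, and no doublet caller was run; 231 cells with both coreceptors entered no gate. Ighm, one of the B cell markers chosen, was not used here. The NK genes were Ncr1, Klrb1c, Klra4, Klra7, Klra8, Klra9, Klre1 and Klri2.

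Tests between cell groups used counts summed per library and group, in edgeR 4.0.16 (R 4.3.3) with TMM, filterByExpr, quasi-likelihood tests, the library as a block and Benjamini-Hochberg adjustment, with calls at an adjusted p under 0.05. Genes that set a gate or split the cells were left out. A gene could meet filterByExpr through the levels of 1 group alone, and this was not examined for every gene named. A library entered with at least 10 cells per group, or 5 for Gzmk against Gzmb. Libraries are the replicates and each had another treatment, so the p-values measure the spread of a difference over treatments. DESeq2 1.42.0 and other settings were alternatives, and the scripts were tested on simulated data.

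Named were the 8 genes, 6 further granzymes, a list of 21 pathway genes and lists of naive, terminal effector, memory and homing, and cycling genes. Among the 5 largest increases and decreases with 1 sign in every library, those that bear on the text are named. For Gzma, Gzmb and Gzmk the 3 genes with the highest Pearson r of log2(UMIs per 10000 + 0.1) were named, among genes with at least 100 UMIs. Promoter sequences and positions came from RefSeq on GRCm38.p6.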

Additional observations from a re-analysis of the deposited data

How the results depend on the processing

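For CD8 against CD4 cells, 496 genes were called with no filter on low counts, 83 without the library block, 494 without the 5% of cells with the most UMIs, and 90 to 252 with a library left out. Of the 6 members called there, Gzma, Gzmb, Gzmk and Nkg7 did not pass without the block. Gzmb did not pass in DESeq2 (adjusted p 0.06) nor Gzmk without PDOX. Ctsw passed in every alternative run, and so did Gzmm, which met the main filter on low counts only through its CD8 levels. For NK against CD8 cells, the calls were 186 in DESeq2, 303 without the block, 210 in cells thinned to 750 UMIs and 209 to 347 with a library left out. Gzmk, lower in NK cells, did not pass in 9 alternatives, Gzmm in 4 and Ctsw in 2. For granzyme+ against granzyme-negative CD8 cells, the calls were 437 in DESeq2, 466 without the deepest 5% of cells, 230 in thinned cells and 390 to 825 with a library left out, and Gzmm did not pass in 3 alternatives. For Gzmk against Gzmb cells, they were 4 in DESeq2, 17 with no filter, 2 without the block, 23 without cells over 2900 genes, 2 in thinned cells and 10 to 15 with a library left out, and Gzmm passed without cells over 2900 genes (adjusted p 0.049). Thinning took the share of granzyme+ CD8 cells to 2.16%, 8.77%, 14.6% and 31.1%, that of granzyme+ CD4 cells to 2.44% in untreated, 5.69% in anti-OX40/CpG and 12.2% in PDOX, and the share of Gzmk+ CD8 cells with Gzmb to 43.8% and with Gzma to 36.0%. With 2 or more UMIs of each granzyme, the share of Gzmk+ cells with Gzmb was 55.6%, and with a library left out it was 60.4% to 73.4%. The share with Gzma was then 38.0% to 49.1%, and that of Gzmb+ cells with Gzma 47.6% to 59.4%. Without the 5% of cells with the most UMIs, 1 member was 2-fold higher in anti-OX40/CpG than in untreated CD4 cells, and without cells carrying an NK gene, an alternative added after seeing the data, 0 were in anti-PD-L1. With all genes kept in the totals, Gzma in NK cells was at 165.5 per 10000. The PDOX to untreated ratio in CD8 cells rose for Gzma to 61.1 with 2 coreceptor UMIs asked for, 48.3 without the 5% deepest cells and 39.3 in thinned cells, and for Gzmb to 30.0, 44.9 and, without cells carrying an NK gene, 25.5. No alternative reversed a called difference, and the cause of these changes was not tested. No paired analysis was possible because each treatment is 1 library, while the comparisons of cell groups were paired within libraries by the block. No library at this depth shows that a cell lacks a gene, and 3 of the 8 genes (Gzmm, Prf1 and Fasl) had under 400 UMIs.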
